A study of Mus musculus with 9 samples.

Results

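A set of 10 cell adhesion molecules of the immunoglobulin type was followed across 3 lines of mouse embryonic fibroblasts: Alcam, Mcam, Igsf11, Cadm1, Ncam1, L1cam, Nrcam, Vcam1, Icam1 and Bcam. They are 10 of the 24647 gene symbols on the arrays and occupy 11 of the 41345 transcript clusters, the probe groups that each stand for 1 transcript locus, because Ncam1 has a second, dimmer cluster. A row of the authors' deposited table was taken where its symbol matched a listed name, and each symbol was represented by its brightest cluster. The list was chosen by family and by values of these same arrays: Alcam and Mcam were selected on their different changes between the lines, and earlier results had shown Mcam and Igsf11 among the large differences. Those 3 are therefore described without a test, and the other 7 were tested in a fit over all clusters.

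Each line was grown as 3 dishes, and RNA of each dish went on 1 array. The human APE1 line, the mouse Ape1 line and the vector control line all share the same base: male fibroblasts that are mApe1-/-, carry a human APE1 transgene (hAPE1TG) and are labelled isogenic to C56BL/6. APE1 is an endonuclease of DNA base excision repair that also acts on transcription factors as a redox factor. The design text puts Ape1 in the parental line at 0.2% of the level in normal embryonic fibroblasts. A note deposited with the data puts the vector control against the human APE1 or mouse Ape1 lines at about 1:500. Cells were harvested in log phase from 60 mm dishes in DMEM with 10% serum. The sources used here do not say how the lines were derived, and Apex1 itself is not analysed here. Each group is 1 line, so the gene expressed and the line cannot be told apart, and the p-values reflect dish-to-dish spread alone.

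Immunoglobulin-type adhesion molecules carry immunoglobulin-like domains outside the cell, usually 1 membrane span and a short tail that binds the cytoskeleton. They hold cells together by binding a copy of themselves or a relative on the next cell, or bind integrins, laminins and growth factor receptors. In fibroblasts and other mesenchymal cells, Alcam, Mcam and Vcam1 are also used as surface markers.

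The values are log2 RMA values, the authors' normalized array signal, and differences are differences of log2 group means. Array medians lay between 5.64 and 5.75 and the 25th percentile between 4.27 and 4.36. Arrays correlated at r = 0.990 to 0.993 within lines and at 0.977 to 0.987 between lines. These correlations run across clusters of the same arrays and not across samples. The fibroblast markers Vim, Fn1 and Col1a1 averaged 13.0, 13.0 and 11.2 in the human APE1 line, 13.2, 12.8 and 11.8 in the mouse Ape1 line, and 12.9, 13.0 and 12.1 in the vector control line, while Lum lay below the 25th percentile of every array. Over 10 fibroblast markers, the mean level per array was 8.46 to 8.56, 8.68 to 8.76 and 9.25 to 9.33 in the same order of lines, and 6 of the 10 were lower in each Ape1-expressing line than in the vector control at an adjusted p under 0.05. In the mouse Ape1 line 2 of the 10, Col1a2 and Vim, were higher, by 0.52 and 0.34 (limma adjusted p = 0.000993 and 0.0113). Col1a2 was lower in the human APE1 line (-0.68, limma adjusted p = 0.000364). The largest falls were in Dcn, which averaged 5.81 in human APE1, 5.59 in mouse Ape1 and 8.87 in vector control. Pdgfra, also lower in each, averaged 5.73, 6.39 and 7.58 in the same order. These are bulk RNA measurements, in which fewer cells of a kind and less RNA per cell cannot be told apart.

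The promoters of the 3 members with the widest range are shown first, because these are the genes whose levels separate the 3 lines. Each is the 250 bases upstream of the start on the gene's strand, from RefSeq on build GRCm38.p6. Alcam lies at chr16:52453082-52453331 on the minus strand, Mcam at chr9:44134408-44134657 on the plus strand and Igsf11 at chr16:38902095-38902344 on the plus strand. Capitals mark matches, on either strand, to the GC box GGGCGG, the CCAAT box CCAAT or the cAMP response element TGACGTCA.
Alcam: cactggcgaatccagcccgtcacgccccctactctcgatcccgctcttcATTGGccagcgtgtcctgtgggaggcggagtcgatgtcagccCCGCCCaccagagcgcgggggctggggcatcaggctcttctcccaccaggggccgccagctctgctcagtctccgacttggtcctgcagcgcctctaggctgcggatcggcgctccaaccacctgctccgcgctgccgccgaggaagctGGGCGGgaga
Mcam: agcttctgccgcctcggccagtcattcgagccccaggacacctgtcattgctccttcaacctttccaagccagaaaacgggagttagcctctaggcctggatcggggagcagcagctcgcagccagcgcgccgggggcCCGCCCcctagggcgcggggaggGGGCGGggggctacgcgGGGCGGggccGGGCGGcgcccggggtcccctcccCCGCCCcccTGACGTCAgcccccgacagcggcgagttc
Igsf11: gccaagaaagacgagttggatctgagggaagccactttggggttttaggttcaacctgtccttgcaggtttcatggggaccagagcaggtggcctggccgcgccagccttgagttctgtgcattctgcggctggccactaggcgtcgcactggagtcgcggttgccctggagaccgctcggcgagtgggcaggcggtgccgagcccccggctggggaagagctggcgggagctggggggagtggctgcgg
The Alcam window holds a CCAAT box at -201 to -197 and GC boxes at -159 to -154 and -10 to -5, counted from the start. The Mcam window holds 5 GC boxes between -112 and -33 and a cAMP response element at -29 to -22. No match stands in the Igsf11 window, which says only that these letters are not there. Among 32851 mouse promoters of the same length, 32.7% hold a GC box, 33.8% a CCAAT box and 1.55% the cAMP response element. Another 3 motifs were searched and found in none of the 3 windows: AP-1 (TGANTCA, in 6.75% of promoters), the E-box CACGTG (6.02%) and NF-kB (7.25%). GC content was 69.2% for Alcam, 73.6% for Mcam and 65.6% for Igsf11, against a median of 52.4% over all promoters. It was also above that median for Nrcam (72.4%), Bcam (70.0%), Icam1 (65.2%) and the L1cam windows (69.6% and 63.2%). Nrcam, Icam1 and both L1cam windows also hold a GC box, and an L1cam window a CCAAT box. A high GC content, a GC box and a CCAAT box are therefore not particular to the 3 molecules shown. Among the 8 windows of the 7 molecules with a promoter, the cAMP response element stood in that of Mcam alone. No window but that of Mcam held over 2 GC boxes. A match is a description of the letters and not a binding site.

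Alcam and Mcam are receptors known as CD166 and CD146. Alcam binds itself on neighbouring cells and CD6 on lymphocytes, and Mcam, first described on melanoma cells and endothelium, binds laminins and galectins. Alcam lay on opposite sides of the vector control in the Ape1-expressing lines: it was lowest in the human APE1 line and highest in the mouse Ape1 line. Mcam was higher in both.

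Alcam (cluster 17330918, chromosome 16) read 6.50, 6.85 and 6.83 in the human APE1 dishes, 9.94, 9.88 and 9.93 in the mouse Ape1 dishes, and 8.68 in all 3 vector control dishes. The 3 lines did not overlap, and the gaps between them were several times the spread of dishes within a line. Group means were 6.73 ± 0.194, 9.92 ± 0.034 and 8.68 in the same order (SD, n = 3 each). The vector control has no spread to give, because its 3 deposited values are identical, as they are for 449 clusters in that line, 521 in the human APE1 line and 586 in the mouse Ape1 line. Alcam was 3.88-fold lower in the human APE1 line than in the vector control, a log2 difference of -1.96 (SE 0.093). In the mouse Ape1 line it was 2.35-fold higher than in the vector control, a difference of 1.23 with the same SE. That SE comes from the fit over all 3 lines, so it also holds the spread of the human APE1 dishes. Between the human APE1 and mouse Ape1 lines the difference was -3.19, or 9.12-fold. That is the widest span of any of the 10 molecules.

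Mcam (cluster 17516518, chromosome 9) read 9.51, 9.43 and 9.58 in the human APE1 dishes, 10.01, 10.06 and 10.06 in the mouse Ape1 dishes, and 7.68, 7.58 and 7.76 in the vector control dishes. Every dish of both Ape1-expressing lines lay above every vector control dish, and the mouse Ape1 dishes lay above the human APE1 dishes. The means were 9.51 ± 0.074, 10.04 ± 0.028 and 7.67 ± 0.091 (SD, n = 3 each). The human APE1 line exceeded the vector control by 1.83 (SE 0.068), or 3.56-fold, and the mouse Ape1 line exceeded it by 2.37, or 5.17-fold. The human APE1 line was 0.54 below the mouse Ape1 line as a log2 difference of group means, a smaller gap than either line's distance from the vector control.

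In the authors' deposited table, which summarises the same arrays in another way, the vector control over human APE1 ratio of Alcam was 3.62 and its vector control over mouse Ape1 ratio was 0.447. These ratios run the other way from the log2 differences above, so a value over 1 means higher in the vector control. For Mcam the authors' deposited table gives ratios of 0.328 and 0.223 in the same order. The 2 summaries thus place both molecules on the same sides of the vector control.

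**Figure D1:**
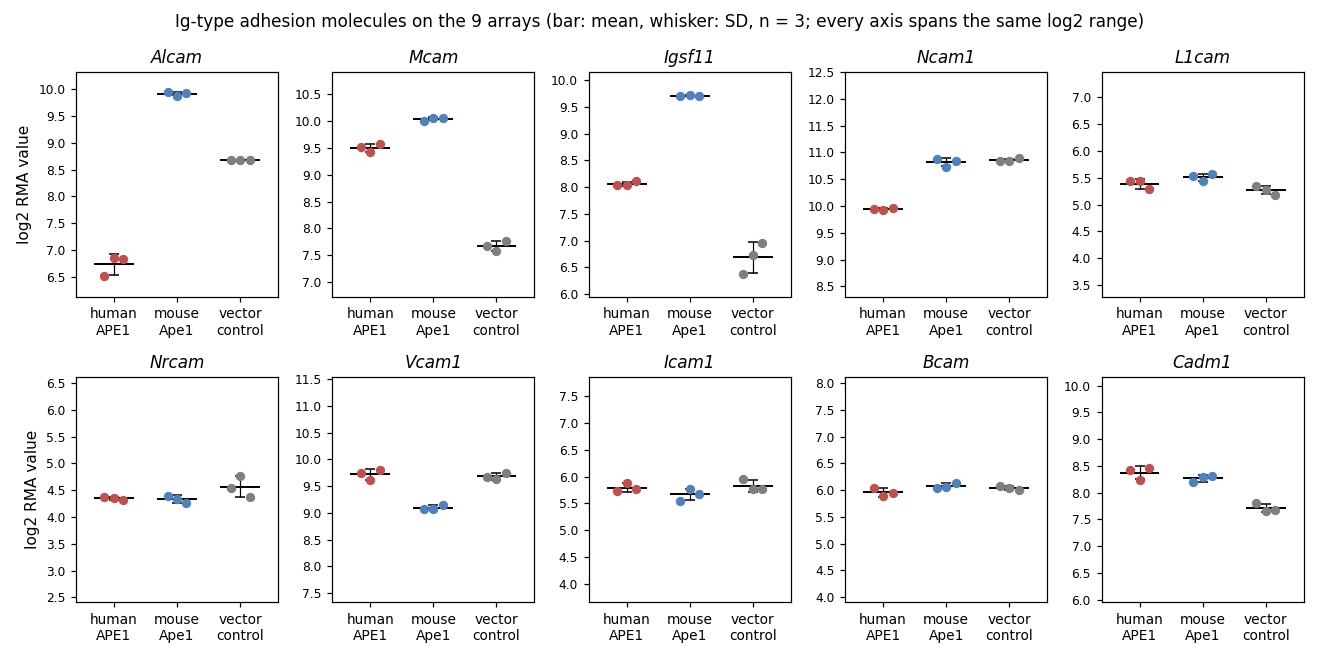
Log2 RMA value (vertical axis) of the 10 adhesion molecules in each dish of the human APE1, mouse Ape1 and vector control lines. Points are dishes, bars are means, whiskers are SD (n = 3), and all panels span the same log2 range. Alcam is lowest in the human APE1 line (6.50 to 6.85) and highest in the mouse Ape1 line (9.88 to 9.94), whereas Mcam is higher in both than in the vector control (7.58 to 7.76).

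Igsf11 and Cadm1 join cells mainly by binding like molecules and carry tails that bind PDZ-domain scaffolds. Igsf11 is known from brain, testis and synapses. Cadm1 is a nectin-like molecule, also called SynCAM1, known from synapses, epithelia and mast cells. Both were higher in each Ape1-expressing line than in the vector control, and Igsf11 was highest in the mouse Ape1 line.

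Igsf11 (cluster 17325651, chromosome 16) read 8.03, 8.04 and 8.11 in the human APE1 dishes, 9.71, 9.72 and 9.69 in the mouse Ape1 dishes, and 6.38, 6.74 and 6.95 in the vector control dishes. The lines formed 3 separate levels, with the widest spread among the vector control dishes (SD 0.289, against 0.041 in human APE1 and 0.015 in mouse Ape1). The log2 difference was 1.37 (SE 0.13), or 2.59-fold, for human APE1 minus vector control. It was 3.02, or 8.11-fold, for mouse Ape1 minus vector control, the largest difference from the vector control among the 10 molecules. The human APE1 line was 3.14-fold below the mouse Ape1 line. The authors' deposited table gives 1.79 in place of 1.37 for human APE1 minus vector control.

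Cadm1 (cluster 17516960, chromosome 9) read 8.42, 8.24 and 8.47 in the human APE1 dishes, 8.19, 8.29 and 8.31 in the mouse Ape1 dishes, and 7.80, 7.65 and 7.68 in the vector control dishes. All 6 dishes of the Ape1-expressing lines lay above all vector control dishes, while those 2 lines overlapped. Cadm1 was 1.58-fold higher in the human APE1 line than in the vector control (log2 difference 0.66, SE 0.0795, limma adjusted p = 0.00148). In the mouse Ape1 line it was 1.47-fold higher (0.55, limma adjusted p = 0.00255). The difference between the human APE1 and mouse Ape1 lines was 0.11 and did not pass the test (limma adjusted p = 0.486).

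Ncam1, L1cam and Nrcam are best known from the nervous system. Ncam1 (CD56) binds itself and the receptor Fgfr1, and its adhesion is weakened by the polysialic acid that sialyltransferases add to it. L1cam and Nrcam belong to the L1 family, whose tails bind ankyrins. Of the 3, Ncam1 passed the test: it was lower in the human APE1 line than in either of the other lines.

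Ncam1 (cluster 17526776, chromosome 9) read 9.95, 9.92 and 9.97 in the human APE1 dishes, 10.87, 10.73 and 10.84 in the mouse Ape1 dishes, and 10.83, 10.84 and 10.89 in the vector control dishes. Every human APE1 dish lay below every other dish, and the mouse Ape1 and vector control dishes overlapped. Ncam1 was 1.88-fold lower in the human APE1 line than in the vector control (log2 difference -0.91, SE 0.058, limma adjusted p = 6.08e-05). It was 1.83-fold lower in the human APE1 line than in the mouse Ape1 line (-0.87, limma adjusted p = 6.71e-05), a direct test of the difference between those lines. Mouse Ape1 minus vector control was -0.04 and did not pass (limma adjusted p = 0.745).

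The dimmer Ncam1 cluster (17517084, also chromosome 9) read 5.94, 6.15 and 6.27 in the human APE1 dishes, 6.45, 6.45 and 6.71 in the mouse Ape1 dishes, and 6.48, 6.45 and 6.77 in the vector control dishes. Its human APE1 dishes were again below all others, but the difference from the vector control, -0.45 (SE 0.12), missed the threshold (limma adjusted p = 0.0574). The difference from the mouse Ape1 line, -0.42, missed it too (limma adjusted p = 0.0711).

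L1cam (cluster 17542419, chromosome X) lay below the array median on all 9 arrays, at 5.43, 5.44 and 5.28 in the human APE1 dishes, 5.52, 5.43 and 5.57 in the mouse Ape1 dishes, and 5.35, 5.28 and 5.19 in the vector control dishes. The mouse Ape1 and vector control dishes did not overlap, yet the difference of 0.24 did not pass the test (limma adjusted p = 0.0629). With dim clusters left out before the fit it passed, at a limma adjusted p of 0.0428. Human APE1 minus vector control was 0.11 (limma adjusted p = 0.402).

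Nrcam (cluster 17275255, chromosome 12) was close to the 25th percentile of the arrays, at 4.38, 4.35 and 4.32 in the human APE1 dishes, 4.39, 4.34 and 4.25 in the mouse Ape1 dishes, and 4.55, 4.77 and 4.38 in the vector control dishes. The differences from the vector control were -0.22 for human APE1 (limma adjusted p = 0.225) and -0.23 for mouse Ape1 (limma adjusted p = 0.161). Neither passed the test, and without vector control replicate 3 the mouse Ape1 difference was -0.33, with a limma adjusted p of 0.0498.

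Vcam1 and Icam1 are ligands of leukocyte integrins that inflammatory cytokines induce, and Bcam, the Lutheran blood group molecule, is a receptor for laminin. Of these 3, Vcam1 was lower in the mouse Ape1 line than in either of the other lines. Icam1 and Bcam passed the test in no comparison.

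Vcam1 (cluster 17409649, chromosome 3) read 9.75, 9.61 and 9.81 in the human APE1 dishes, 9.07, 9.08 and 9.15 in the mouse Ape1 dishes, and 9.68, 9.62 and 9.74 in the vector control dishes. All 3 mouse Ape1 dishes lay below all 6 other dishes, which overlapped with each other. Mouse Ape1 minus vector control was -0.58 (SE 0.069, limma adjusted p = 0.00101), or 1.50-fold lower. Human APE1 minus mouse Ape1 was 0.62, or 1.54-fold higher (limma adjusted p = 0.000781). Human APE1 minus vector control was 0.04 (limma adjusted p = 0.791).

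Icam1 (cluster 17515074, chromosome 9) read 5.72, 5.88 and 5.77 in the human APE1 dishes, 5.55, 5.77 and 5.68 in the mouse Ape1 dishes, and 5.96, 5.77 and 5.77 in the vector control dishes, with overlap between all lines. Its differences were -0.04 for human APE1 (limma adjusted p = 0.840) and -0.16 for mouse Ape1 (limma adjusted p = 0.259), both minus vector control. Bcam (cluster 17487422, chromosome 7) read 6.05, 5.89 and 5.95 in the human APE1 dishes, 6.05, 6.06 and 6.13 in the mouse Ape1 dishes, and 6.09, 6.05 and 6.00 in the vector control dishes. Its lines overlapped as well, with differences of -0.08 (limma adjusted p = 0.475) and 0.03 (limma adjusted p = 0.774) in the same order.

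Counted over the 7 tested molecules, each comparison called 1 higher and 1 lower. Cadm1 was higher and Ncam1 lower for human APE1 minus vector control, against 15.7% of all symbols called there, 6.58% higher and 9.13% lower. Cadm1 was higher and Vcam1 lower for mouse Ape1 minus vector control, where 19.9% of all symbols were called, 9.75% higher and 10.2% lower. Vcam1 was higher and Ncam1 lower for human APE1 minus mouse Ape1, where 16.6% were called, 7.17% higher and 9.39% lower. A count of 2 in 7 read against these shares is not a result about the family. The median difference over all symbols was 0.00, -0.03 and 0.03 in the 3 comparisons. The authors' deposited list, of clusters that passed their own 3-group test, holds 7115 clusters, beside 41345 on the arrays. It includes 6 of the 10 molecules: Alcam, Mcam, Igsf11, Ncam1, Vcam1 and Cadm1. The first 3 of these were chosen with values of these arrays known, so this count is not a result about the family either.

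**Figure D2:**
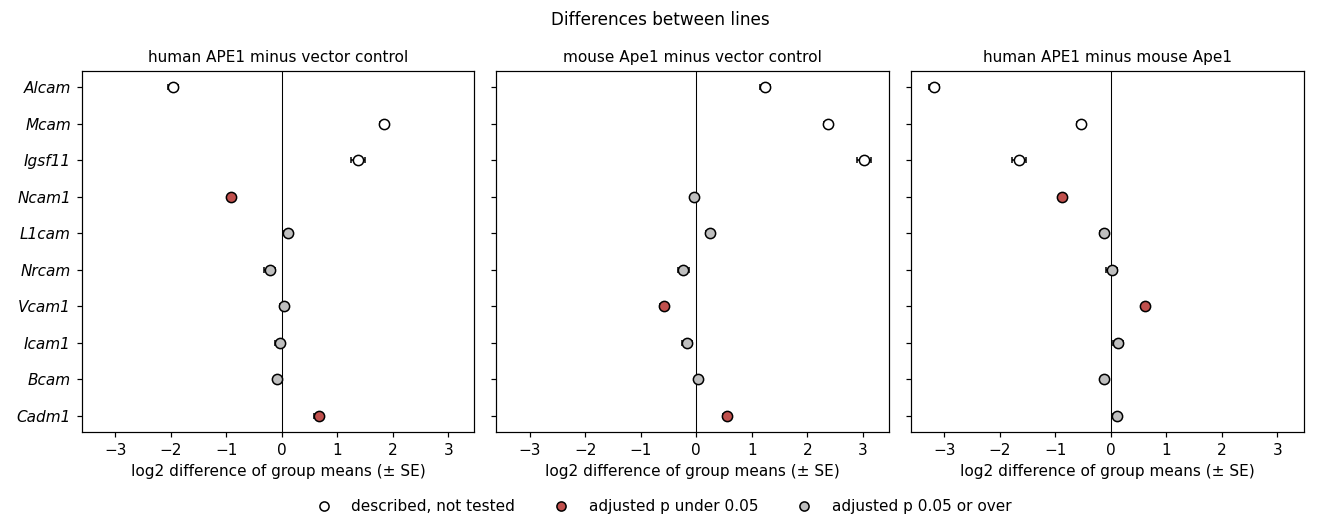
Log2 difference of group means with its SE (horizontal axis) for the 10 molecules in the 3 comparisons. Open circles were described without a test, red circles passed at an adjusted p under 0.05 and grey circles did not. Alcam stands at -1.96 for human APE1 and at 1.23 for mouse Ape1, each minus vector control, and Ncam1, Vcam1 and Cadm1 each passed in 2 comparisons.

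Among the lines, the order of the levels therefore differed between molecules. Mouse Ape1 was above human APE1, and human APE1 above vector control, for Mcam and Igsf11. For Alcam the order was mouse Ape1, vector control, human APE1. Cadm1 had human APE1 and mouse Ape1 within their spread of each other, Ncam1 had mouse Ape1 and vector control within theirs, and Vcam1 had human APE1 and vector control within theirs.

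The genes nearest in pattern to Alcam and Mcam were found by the root mean square distance over the 9 arrays, after each gene's own mean was subtracted, among 17592 symbols. For Alcam, whose own deviation from its mean was 1.32, they were Ptprn at a distance of 0.133, Ccnd2 at 0.231 and Ulbp1 at 0.304. Ptprn, a membrane protein of secretory granules, averaged 6.11 ± 0.200 in the human APE1 line, 9.42 ± 0.065 in the mouse Ape1 line and 8.35 ± 0.040 in the vector control line (SD, n = 3 each). Ccnd2 is the cell cycle regulator cyclin D2, and Ulbp1 is a ligand of the natural killer cell receptor NKG2D. For Mcam, with an own deviation of 1.02, they were Tmem20 at 0.0887, Renbp at 0.117 and Sorbs2 at 0.230. Renbp is the renin-binding protein and Sorbs2 an adaptor at actin structures. The distances describe 9 dishes of 3 lines, so they rest on 3 levels per gene.

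**Figure D3:**
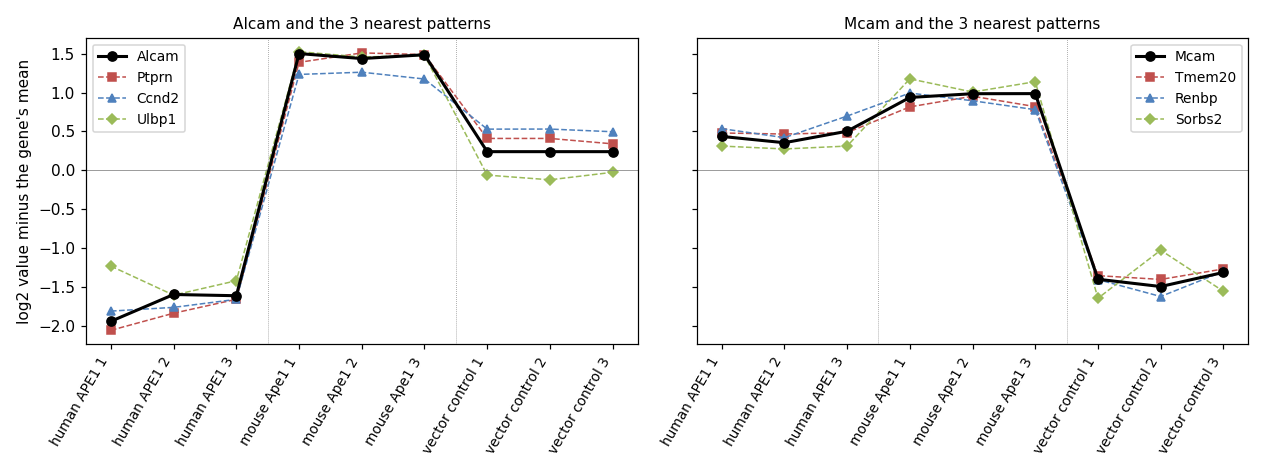
Log2 value minus the gene's mean over the 9 arrays (vertical axis) in each dish of the human APE1, mouse Ape1 and vector control lines (horizontal axis), for Alcam and Mcam (black) and the 3 genes nearest to each. The patterns near Alcam are lowest in human APE1 and highest in mouse Ape1, and those near Mcam are lowest in the vector control dishes.

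Around the 10 molecules, 97 relatives and partners were read from lists of families, ligands, linkers and modifying enzymes, and all 97 were measured. For human APE1 minus vector control 13 were higher and 18 lower at an adjusted p under 0.05, and 66 did not pass. For mouse Ape1 minus vector control 17 were higher and 17 lower. For human APE1 minus mouse Ape1 11 were higher and 19 lower. These are 32.0%, 35.1% and 30.9% of the 97, beside the shares over all symbols given above. The lists were chosen with earlier results of these data known, so the shares are not a result about adhesion genes. The same limit holds for the counts of single lists below. Over all symbols, 6.58% were higher and 9.13% lower for human APE1, and 9.75% and 10.2% for mouse Ape1, each minus vector control. The 2 comparisons with the vector control share its 3 arrays. Single dishes and the scaling weigh on the first count of 31. Without human APE1 replicate 1, 17 genes were called, 4 higher and 13 lower, and all 17 are among the 31. Without vector control replicate 2, 20 were called, 6 higher and 14 lower, again all among the 31. With each array's median subtracted, 5 were higher and 19 lower.

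The nectins and nectin-like molecules, the closest relatives of Cadm1, had 2 higher and 2 lower of 8 for human APE1 and 3 higher and 1 lower for mouse Ape1, each against the vector control. Pvrl3 (nectin-3) read 7.17, 7.06 and 7.33 in the human APE1 dishes, 7.98 to 8.01 in the mouse Ape1 dishes, and 6.71, 6.96 and 6.71 in the vector control dishes. It was higher in both, by 0.39 (limma adjusted p = 0.0285) and 1.20 (limma adjusted p = 0.000109). Pvrl1 (nectin-1), like Alcam, had its vector control dishes in the middle, at 7.75, 7.68 and 7.68, against 6.94, 7.16 and 7.22 in human APE1 and 8.25, 8.14 and 8.14 in mouse Ape1. Its differences from the vector control were -0.60 (limma adjusted p = 0.00276) and 0.47 (limma adjusted p = 0.00598), and human APE1 minus mouse Ape1 was -1.07 (limma adjusted p = 0.000125). Pvr, the poliovirus receptor, was lower in both, with differences of -0.29 in human APE1 (limma adjusted p = 0.0255) and -0.37 in mouse Ape1 (limma adjusted p = 0.00689).

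Of 9 junctional adhesion molecules and relatives, 1 was higher and 3 lower for human APE1, and 1 higher and 1 lower for mouse Ape1. Clmp, which the files list as 9030425E11Rik and which sits at epithelial cell contacts, read 6.63, 6.62 and 6.41 in the human APE1 dishes, 6.22, 6.14 and 6.38 in the mouse Ape1 dishes, and 8.87, 8.90 and 8.93 in the vector control dishes. It fell by 2.35 in human APE1 (limma adjusted p = 3.75e-06), and its difference in mouse Ape1 was -2.65 (limma adjusted p = 1.62e-06). Cxadr, its relative that serves as a receptor for coxsackieviruses and adenoviruses, was higher in both lines, by 0.33 (limma adjusted p = 0.0211) and 0.98 (limma adjusted p = 8.88e-05).

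The 6 basigin family and EWI molecules accompany monocarboxylate transporters, integrins and tetraspanins in the membrane. Of these, 5 were lower for human APE1 and 4 for mouse Ape1, and none was called higher. Over all symbols, 9.13% and 10.2% were lower in these comparisons. None of the 6 lay below the array median on all 9 arrays, and the list was chosen with earlier results known. Bsg was called in neither (-0.10 and -0.19), and Nptn was lower in human APE1 (-0.25) but not called in mouse Ape1 (0.12), both named after their values were seen. Their median differences were -0.50 and -0.52, beside 0.00 and -0.03 over all symbols. Emb (embigin), a chaperone of a monocarboxylate transporter, read 4.89, 5.00 and 5.50 in the human APE1 dishes, 6.09, 6.13 and 5.72 in the mouse Ape1 dishes, and 9.44, 9.30 and 9.25 in the vector control dishes. Its differences of -4.20 (limma adjusted p = 6.87e-06) and -3.35 (limma adjusted p = 1.74e-05) were the largest among the 97. Emb lay below the array median on 3 human APE1 arrays and 1 mouse Ape1 array.

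The 18 neural immunoglobulin molecules, relatives of Ncam1 and L1cam, had none called by limma in any of the 3 comparisons, with median differences of -0.10, -0.04 and 0.04, and 1, 2 and 2 of them had an unadjusted p under 0.05. They were mostly dim: 14 of the 18 lay below the array median on all 9 arrays, and 4 of these below the 25th percentile. Of the 6 IgLON and GPI-linked molecules only Negr1, a neuronal growth regulator, was called, higher in mouse Ape1 by 0.61 (limma adjusted p = 0.00313). Negr1 too was dim, below the array median on 3 human APE1, 2 mouse Ape1 and 3 vector control arrays. For human APE1, 1 of the 6 had an unadjusted p under 0.05 and none an adjusted one. Of 7 leukocyte and vascular molecules only Cd47, the ligand of an inhibitory receptor on phagocytes, was called against the vector control, lower in mouse Ape1 by a difference of -0.63 (limma adjusted p = 0.00100), and 1 of the 7 had an unadjusted p under 0.05 for human APE1.

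Among the receptors and ligands of the 10 molecules, the integrin chains that bind Vcam1 and Icam1 had 1 of 8 called by limma for human APE1, Itgb1. None was called for mouse Ape1, where 1 other chain, Itgb7 (named after its values were seen), had an unadjusted p under 0.05. Itgb1, which pairs with Itga4 to bind Vcam1, averaged 11.8 in human APE1, against 12.2 in the vector control (log2 difference -0.42, limma adjusted p = 0.00344). Itga4 itself, named after its values were seen, lay below the 25th percentile on all 9 arrays, at 3.79 to 4.12. Of 8 laminins, growth factor receptors, galectins and other partners, 3 were higher and 3 lower for human APE1, and 2 higher and 3 lower for mouse Ape1. Lama4, the laminin chain that Mcam binds, read 4.38, 4.05 and 4.26 in the human APE1 dishes, 4.29, 4.18 and 4.17 in the mouse Ape1 dishes, and 5.82, 5.74 and 6.29 in the vector control dishes. Lama4 was lower in both, with differences of -1.72 (limma adjusted p = 0.000287) and -1.74 (limma adjusted p = 0.000205), and lay under the 25th percentile on 2 human APE1 and 3 mouse Ape1 arrays. Nrp1, a semaphorin coreceptor that binds L1cam, was higher in both lines. Its differences were 0.27 in human APE1 (limma adjusted p = 0.0177) and 0.90 in mouse Ape1 (limma adjusted p = 4.26e-05). Lgals8, a galectin, was higher in human APE1 by 0.45 (limma adjusted p = 0.00509) and not called in mouse Ape1 (-0.22, limma adjusted p = 0.0714).

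Inside the cell, 6 of 11 cytoplasmic linkers were higher and 2 lower for human APE1, and 5 higher and 1 lower for mouse Ape1. Over all symbols, 6.58% were higher and 9.13% lower for human APE1, and 9.75% and 10.2% for mouse Ape1. None of the 11 linkers lay below the array median on all 9 arrays, unlike most of the neural molecules. The count is therefore not a result about linkers. Epb4.1l3, the band 4.1 protein that binds the tail of Cadm1, was higher in both lines. Its differences were 0.52 in human APE1 (limma adjusted p = 0.000780) and 0.71 in mouse Ape1 (limma adjusted p = 0.000109). Mllt4 (afadin), which binds nectin tails, was also higher in both, by 0.46 in human APE1 (limma adjusted p = 0.00222) and 0.73 in mouse Ape1 (limma adjusted p = 0.000165). Ezr (ezrin), which ties membrane proteins to actin, read 8.83, 8.84 and 9.02 in the human APE1 dishes, 7.32, 7.16 and 6.74 in the mouse Ape1 dishes, and 8.45, 8.45 and 8.51 in the vector control dishes. Its mouse Ape1 difference was -1.40 (limma adjusted p = 0.000435). Msn (moesin), of the same family, had a difference of -0.44 in human APE1 (limma adjusted p = 0.00252) and of 0.41 in mouse Ape1 (limma adjusted p = 0.00252), so its vector control dishes too lay between the other lines.

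Of 7 sheddases and glycosyltransferases, which cut adhesion molecules from the surface or add sugars to them, 1 was lower for human APE1, and 3 were higher and 1 lower for mouse Ape1. The sheddase Adam17, whose substrates include Alcam and L1cam, read 10.03, 9.91 and 10.04 in the human APE1 dishes, 10.74, 10.75 and 10.70 in the mouse Ape1 dishes, and 10.34, 10.39 and 10.33 in the vector control dishes. Its differences were -0.36 (limma adjusted p = 0.00551) and 0.38 (limma adjusted p = 0.00347), so its vector control dishes, like those of Alcam, lay between the other lines. Bace1 was higher in mouse Ape1 by 0.45 (limma adjusted p = 0.00376), and Bace2 was lower by a difference of -0.64 (limma adjusted p = 0.0428). Bace2 was dim, below the array median on 3 human APE1, 3 mouse Ape1 and 1 vector control arrays.

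The last list holds regulators of Vcam1 and Icam1: cytokine receptors and transcription factors that can induce them, and Nfkbia, which inhibits NF-kB. Of these 9, 1 was higher and 1 lower for human APE1, and 2 were higher and 5 lower for mouse Ape1. For mouse Ape1, 9.75% of all symbols were higher and 10.2% lower. None of the 9 lay below the array median on all 9 arrays. Their median difference in mouse Ape1 was -0.36, against -0.03 over all symbols, and it pools inducers with the inhibitor Nfkbia. The part of these genes in the level of Vcam1 was not tested. Il1r1, the receptor for interleukin-1, read 9.27, 9.21 and 9.25 in the human APE1 dishes, 7.95, 7.88 and 7.68 in the mouse Ape1 dishes, and 9.37, 9.48 and 9.44 in the vector control dishes. All mouse Ape1 dishes lay below all other dishes, and the difference there was -1.60 (limma adjusted p = 1.30e-05). Tnfrsf1a, a receptor for tumour necrosis factor, was lower in both lines, by differences of -0.47 in human APE1 (limma adjusted p = 0.00484) and -0.36 in mouse Ape1 (limma adjusted p = 0.0118). Nfkbia was higher in human APE1 by 0.54 (limma adjusted p = 0.00344), and its difference in mouse Ape1 was -0.51 (limma adjusted p = 0.00352). The transcription factor Yy1 was higher in mouse Ape1 by 0.60 (limma adjusted p = 0.000315). Of 2 further transcription factors named after their values were seen, Gata6 was higher in mouse Ape1 by 0.56 (limma adjusted p = 0.00344) and Irf1 was lower there by a difference of -0.65 (limma adjusted p = 0.000545).

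**Figure D4:**
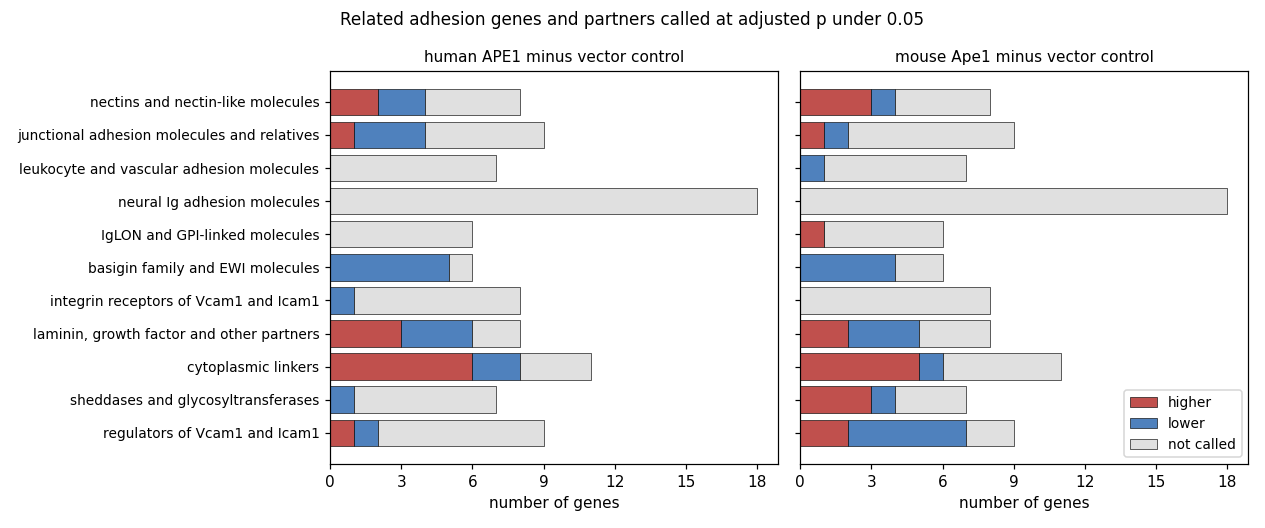
Number of genes (horizontal axis) in each list of relatives and partners that was higher, lower or not called at a limma adjusted p under 0.05, for human APE1 minus vector control and mouse Ape1 minus vector control. None of the 18 neural molecules was called, and 5 of 6 basigin family and EWI molecules were lower for human APE1. Over all symbols, 9.13% were lower in that comparison.

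Markers of other cell types that carry these molecules were read beside them. The mean level per array of 8 endothelial markers was 4.85 to 5.01 in human APE1, 4.96 to 5.01 in mouse Ape1 and 4.86 to 4.97 in vector control, with 1 of 8 higher in mouse Ape1 and none called in human APE1, where 0 had an unadjusted p under 0.05 in limma. The 6 pericyte and smooth muscle markers read 6.20 to 6.29, 5.92 to 6.01 and 6.68 to 6.91 in the same order of lines, with 1 lower for human APE1 and 2 lower for mouse Ape1. Most of that shift is Acta2 (smooth muscle actin), which averaged 8.18 in human APE1, 7.60 in mouse Ape1 and 11.95 in vector control, and the other called marker was Des, lower in mouse Ape1 (7.16, against 8.04 in the vector control). The 8 neural and glial markers read 5.88 to 6.04, 6.08 to 6.18 and 6.13 to 6.15, with 1 lower for human APE1 and 2 higher for mouse Ape1. The 7 macrophage and leukocyte markers read 5.28 to 5.32, 5.22 to 5.25 and 5.39 to 5.44, with 1 lower in each line. None of the 7 epithelial or 5 melanocyte markers was called by limma, and 1 melanocyte marker had an unadjusted p under 0.05, for human APE1 minus vector control. The part of these shifts, and of those of the fibroblast markers, in the values of the adhesion molecules was not tested.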

How the data were processed

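The arrays read total RNA of 9 dishes, 3 of each line, and samples were grouped by their titles. Per the labels, the deposited array values are log2 RMA expression values from Expression Console (core exons). RMA equalises the arrays' distributions, which hides any shift that most transcripts share. Per the file headers, a second deposited table is the authors' test of the 3 groups, with group means (log2), linear ratios between groups and unadjusted p-values, and a shorter list with adjusted ones. The submitters' processing notes name Partek. No source used here gives the array design or genome build.

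The values were used as deposited. Lines were compared with limma 3.58.1 in R 4.3.3 (lmFit and eBayes, two-sided tests), with 1 mean per line, all 9 arrays and 6 residual degrees of freedom. Benjamini-Hochberg adjustment ran over all 41345 clusters in each of 3 contrasts, with a threshold of 0.05. The fit was tested on simulated data. Symbols came from the authors' deposited table, chromosomes from RefSeq, and promoters, found for 7 of the 10 molecules, from RefSeq (GRCm38.p6). From each list of relatives, the largest called rise and fall in each comparison with the vector control were named, and genes outside this rule are marked. The molecules and lists were chosen with earlier results of these data known. Whether same-numbered dishes deviate together was checked: 9 pairs gave r from -0.075 to 0.104, so the numbers were not taken to pair dishes. The number of arrays limits the precision. Alternatives covered normalization, dim clusters, the variance model, the arrays fitted, a replicate block, the authors' group means and leaving out each array.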

Additional observations from a re-analysis of the deposited data

Results flagged for a closer look

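Alcam stood out because every dish of the human APE1 line lay below every vector control dish while every dish of the mouse Ape1 line lay above them. Its log2 difference from the vector control was -1.96 in the human APE1 line and 1.23 in the mouse Ape1 line. The difference between these differences was not tested, because Alcam was chosen for it. The 3 vector control values are identical, and each line is 1 line.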

How the results depend on the processing

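No called difference, and none of Alcam, Mcam or Igsf11, changed sign among those recomputed. Of 513 recomputed differences of the 10 molecules, 11 changed sign, all of them small and not called, in Vcam1, Icam1, Bcam, Ncam1 and Nrcam. They include Bcam for human APE1 minus vector control, 0.09 from the authors' deposited group means in place of -0.08. The number of tested adhesion molecules called stayed at 2 in every comparison under each setting, except for mouse Ape1 minus vector control, where L1cam passed as well when dim clusters were left out and Nrcam when vector control replicate 3 was left out. Clusters called numbered 4859 for human APE1 minus vector control, and 3185 to 4776 with 1 array left out, the lowest without human APE1 replicate 1, with 3203 when replicate 2 of that line was left out. They numbered 6681 for mouse Ape1 minus vector control, with 4433 to 6772 when 1 array was left out, the lowest without mouse Ape1 replicate 1. For human APE1 minus mouse Ape1 they numbered 5130, with 3691 to 4892. Relatives and partners called for human APE1 minus vector control numbered 31, with 17 to 29 when 1 array was left out and 20 with the replicate number as a block. The block moved no other count of calls by over 1.5 times and changed no call of a tested molecule. Subtracting array medians moved the share of higher calls among clusters to 35.9% from 46.0% for human APE1 minus vector control, and to 44.5% from 56.2% for mouse Ape1 minus vector control. Running quantile normalization again moved it to 49.2% from 39.5% for human APE1 minus mouse Ape1. The causes were not tested. The second Ncam1 cluster missed the threshold, as given above. With the authors' deposited group means, 14 differences of the 10 molecules moved by more than the larger SD of the 2 lines compared, and 16 did not. Among those that moved, Igsf11 was -1.42 in place of -1.65 for human APE1 minus mouse Ape1. For human APE1 minus vector control, Nrcam was -0.43 in place of -0.22, and L1cam 0.24 in place of 0.11. With its chromosome's median subtracted, Vcam1 was -0.51 in place of -0.58 for mouse Ape1 minus vector control. L1cam and Nrcam are too dim for a firm statement. Icam1 was also below the array median on 1 human APE1 and 2 mouse Ape1 arrays. Bcam, at 5.89 to 6.13, lay not far above the array medians of 5.64 to 5.75. That Icam1 and Bcam did not pass is therefore no evidence that they are unchanged. With 3 arrays a line the precision is limited, and mRNA levels give no measure of protein at the cell surface.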
